A study of Mus musculus with 10 samples.

Results

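Cytosolic ribosomal proteins are the protein parts of the ribosome that reads mRNA in the cytoplasm. The genes described here are the 84 of 24391 gene names in the deposited tables made of Rpl or Rps and a number, with at most 1 further letter (a, x, y or l) and 1 further digit, together with Rplp0, Rplp1, Rplp2 and Rpsa, with the Rps6k kinase genes left out. They encode 48 large-subunit proteins, 33 small-subunit proteins and 3 proteins of the stalk, the protrusion of the large subunit that recruits elongation factors. Their transcripts were counted in the bilateral whole hippocampus of male mice, 10 to 14 weeks old and from a single batch, whose strain is written C56BL/6J in the study's methods. In SAH mice (n = 4) a filament perforated the circle of Willis, the arterial ring below the brain, and mice were kept only if cerebral blood flow dropped at perforation. Sham mice (n = 3) had the same approach, but the filament was pulled back once it met resistance and no vessel was punctured. Naive mice (n = 3) were not operated on. SAH and Sham surgery was done under isoflurane anaesthesia, which the Naive mice are not stated to have had. Tissue was taken at day 4, and each mouse gave 1 library of total RNA depleted of ribosomal RNA.

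A ribosome needs 1 copy of nearly every one of these proteins, and their mRNAs are among the most abundant in any cell. Many of these mRNAs begin with a C followed by a run of pyrimidines, the 5′ terminal oligopyrimidine (TOP) motif, through which the kinase complex mTORC1 and the RNA-binding protein LARP1 set how much of the mRNA is translated. The genes have also left many processed pseudogenes, intron-free copies of their mRNAs, across mammalian genomes. The authors discarded read pairs with more than 1 place of alignment and those lying on several gene names, so both kinds of shared sequence bear on what could be counted.

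Total counts ran from 19743388 to 27254655 per mouse, lowest in Naive 9. Replicates of a group differed by more than sampling noise in all 12 pairs (chi-square over genes of 4.09 to 19.3 per degree of freedom). Two-sided comparisons of all genes used edgeR's quasi-likelihood test on TMM-normalized counts (a scaling that makes the bulk of genes comparable), with Benjamini-Hochberg adjustment over all genes tested and a threshold of 0.10. Levels are given as CPM, the counts of a gene relative to the total of its library after that scaling. In a tissue lysate, fewer cells of a type and less RNA per cell cannot be told apart. In SAH mice all 8 mature oligodendrocyte markers were lower than in control (Sham and Naive pooled), with summed levels of 4905 to 6260 CPM in SAH and 7237 to 9999 CPM in control. Of 7 microglia markers 3 were higher, of 6 endothelial markers 4, of 7 fibroblast markers 6, of 7 astrocyte markers 1 (Gfap), and of 3 tested monocyte, macrophage and T cell markers 3. None of 8 neuronal and 7 hippocampal neuron markers passed in that comparison by edgeR (1 and 3 had an unadjusted p under 0.05, and DESeq2 called 0 and 1). Of 7 choroid plexus markers 0 passed by edgeR or DESeq2 (2 had an unadjusted p under 0.05), whereas 2 were higher in SAH than in Naive, and they summed to 102 to 1225 CPM in SAH and to 44.2 to 827 CPM in control. The haemoglobin genes Hba-a1, Hba-a2, Hbb-b1 and Hbb-b2 were listed at 0 counts in every mouse. Whether their reads were lost to shared sequence was not examined, so these zeros are no measure of blood in the tissue. Together with Alas2 and Slc4a1 these erythrocyte markers summed to 1.11 to 3.79 CPM in SAH and 1.36 to 2.68 CPM in control. Alas2 did not pass in SAH against control (log2 fold change 0.36). The part of these shifts in the values below was not tested.

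Shared sequence was examined first, because it bears on which of these genes can be counted. Each transcript was cut into every possible 50-base window, the length of 1 read, and each window was looked up on both strands of the mouse genome build of the files (NCBIM37, which is mm9). Some of the annotated transcripts used reach beyond the counted exons, as in Rps20 (3706 bases against 502). Shares of repeated windows refer to the transcript, and can differ from those in the counted exons. At least 1 window occurred elsewhere in 81 of the 84 genes, and over 50% of the windows did so in 51. The median was 61.1% of windows, against a median of 0.0% in the 76 mitochondrial ribosomal protein genes looked up, of which 36 had any repeated window and 4 had over 50%. Because read pairs were sequenced, fragments of 150 bases were also looked up, with both end windows required at 1 other place. By that measure the median was 43.9%, and 38 genes had over 50% of fragments repeated. In the mitochondrial ribosomal protein genes the median was 0.0%, with 2 genes over 50%. Rpl3l and Rpl39l were among the genes with no repeated window. The windows below are the coding stretches with the most exact copies elsewhere among these genes, with Rps12 and Rps6 because the later results turn on them. Each lies wholly inside coding sequence, and it is in lower case throughout because every base of it is repeated.

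Rpl7a, exon 5 of 8, chr2:26767890-26767939, plus strand, 45 copies elsewhere: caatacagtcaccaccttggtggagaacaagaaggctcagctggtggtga
Rpl21, spliced from exons 3 and 4 of 6, chr5:147646052-147646583, plus strand, 44 copies elsewhere: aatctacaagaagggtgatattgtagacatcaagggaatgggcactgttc
Rps2, exon 6 of 6, chr17:24858761-24858810, plus strand, 36 copies elsewhere: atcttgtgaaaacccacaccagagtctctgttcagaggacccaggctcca
Rps12, spliced from exons 5 and 6 of 6, chr10:23505038-23505389, minus strand, 21 copies elsewhere: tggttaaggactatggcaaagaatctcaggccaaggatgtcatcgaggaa
Rps6, spliced from exons 4 and 5 of 5, chr4:86500836-86501796, minus strand, 15 copies elsewhere: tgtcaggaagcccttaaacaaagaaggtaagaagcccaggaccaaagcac

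Genes with many repeated windows had both high and low counts. Rps27, a small-subunit protein with 99.7% of its windows repeated, had 17 to 34 counts per mouse. Rps12, also of the small subunit and with 98.1% repeated, had 1559 to 2776 counts per mouse. Rpl9, a large-subunit protein, had 95.2% repeated and ranked among the better-counted genes at 218 CPM per kilobase of exon. Across the 84 genes, Spearman's rho between the share of repeated windows and the mean CPM per kilobase was 0.16, a description over genes that share the same 10 libraries. Counts in Rps12, Rpl9, Rps6 and the other genes with near-identical copies remain uncertain, because reads lost to or gained from copies could not be traced.

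Overlap with another gene name was the feature shared by the widely expressed genes with almost no counts. Rpl26, Rpl30, Rps27 and Rpl34 encode core proteins of the large and small subunits, and in the annotation of the deposited tables each shared over 50% of its exon bases, on the same strand, with a second gene name. Rpl26 (chr11:68715068-68718036) shared 95.8% of 543 exon bases with Gm15772 and had 1 count in SAH 1, Sham 5 and Naive 8 and 0 in the other 7 mice. Rpl30 (chr15:34370263-34373031) shared 76.0% of its bases with Gm12191 and had 28 to 41 counts. Rps27 (chr3:90016589-90017570) shared 60.0% with Rps27rt and had 17 to 34 counts, and Rpl34 (chr3:130429745-130433316) shared 59.9% with Rpl34-ps1 and had 43 to 66 counts. All 4 partner names were listed at 0 in every mouse, and reads on both names had been discarded by the authors. Counts of these 4 genes can come only from read pairs that touch 1 name alone, so that their values understate the mRNA by an unknown amount. Of their windows 81.8% were repeated elsewhere in Rpl26, 62.8% in Rpl30, 99.7% in Rps27 and 44.7% in Rpl34, and the parts of overlap and repeats in their low counts cannot be told apart. One more gene, Rpl13a, shared 1 base with Mir5121 and had 4751 to 7597 counts.

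**Figure D1:**
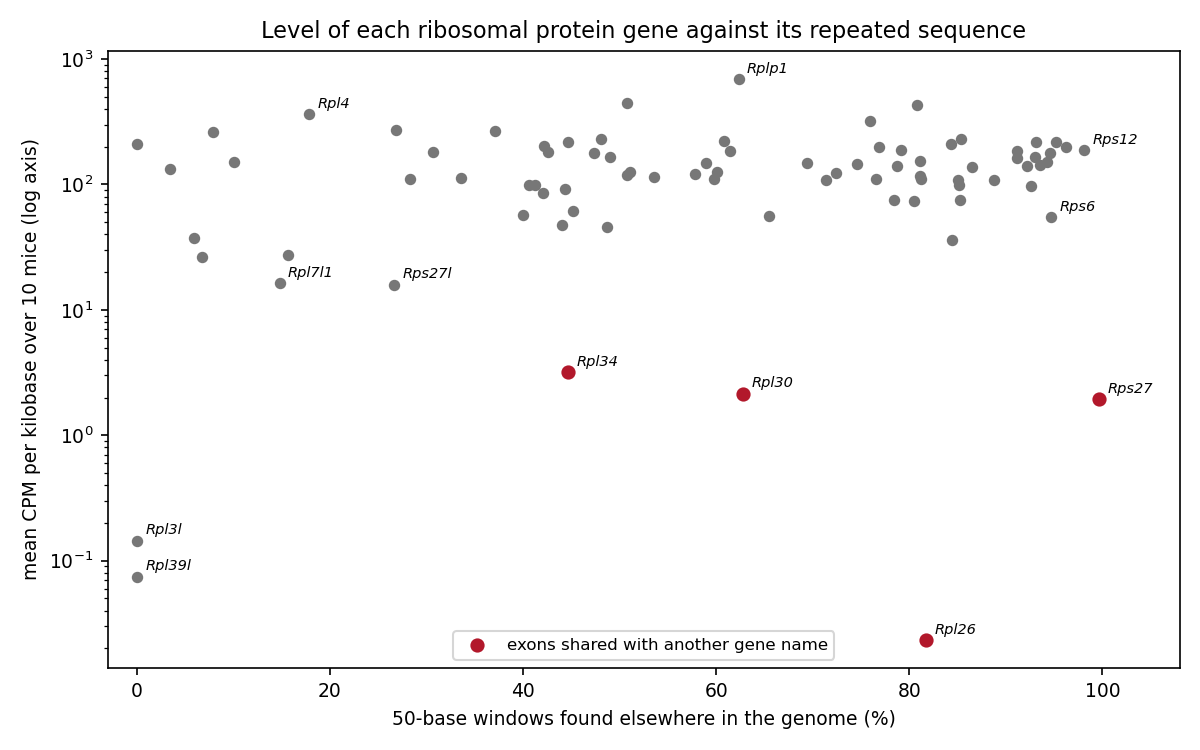
Mean level of 83 ribosomal protein genes over 10 mice (CPM per kilobase of exon, log axis) against the percent of 50-base windows found elsewhere in the genome; each point is a gene, and Rpl10l, at 0 counts in every mouse, is not drawn. Red points, the 4 genes whose exons are mostly shared with another gene name, lie at 3.20 CPM per kilobase or lower with 44.7% to 99.7% of their windows repeated, and Rps12, with 98.1% repeated, lies at 186.

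Most of the genes were highly expressed. The 84 genes took between 0.822% of all counts (Naive 9) and 0.973% (SAH 1), and the median gene had 126 CPM per kilobase, against 7.91 over all genes tested. A level over 100 CPM per kilobase was found for 56 genes, 21 lay between 10 and 100, and 7 lay below 10. The highest was Rplp1, an acidic stalk protein, at 694 ± 38.2 CPM per kilobase (SD, n = 10). Rps15, at 446 ± 19.1, and Rpl41, the shortest protein of the set, at 430 ± 19.3, followed and differed by less than their spread over mice. Rpl4 stood at 362 ± 19.6 and Rps29 at 319 ± 20.2. The other stalk genes, Rplp0 with 118 ± 7.54 and Rplp2 with 181 ± 13.1 CPM per kilobase, were well below Rplp1, and Rpsa, a small-subunit protein also known as the laminin receptor, had 114 ± 6.10. Rps6, the small-subunit protein phosphorylated by the S6 kinases, had 54.7 ± 3.49, and Rps27a, made as a fusion with ubiquitin, had 123 ± 8.50.

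Most paralogs were less abundant than the gene they resemble, on the scale of CPM per kilobase. Rpl3 had 186 ± 11.99 and its striated-muscle paralog Rpl3l had 0.14 ± 0.09, with 1 to 11 counts per mouse. Rpl10 had 150 ± 13.4, and the testis-expressed Rpl10l had 0 counts in every mouse, which allows up to 3 counts in each library. For Rpl39 (47.4 ± 3.60) and Rpl39l (0 to 6 counts) the pattern was the same. Rpl7 had 185 ± 14.4 and Rpl7l1 16.3 ± 1.25, and Rps4x had 162 ± 12.5 and Rps4l 27.2 ± 2.73. In contrast, Rpl22l1, at 55.5 ± 6.39, exceeded Rpl22, at 37.7 ± 2.28. That order depends on the division by exon length. By counts Rpl22 was the higher, at 1666 to 2537 per mouse over 2497 exon bases, against 416 to 733 over 477 in Rpl22l1. Of their windows 5.9% were repeated elsewhere in Rpl22 and 65.5% in Rpl22l1. Rps27l, at 15.9 ± 1.99, exceeded Rps27, at 1.95 ± 0.55, whose counts are subject to the overlap described above. Rpl36a, at 97.9 ± 6.52, exceeded Rpl36al, at 47.5 ± 1.30.

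In SAH mice against the 6 control mice, Rps12 alone passed the threshold among the 80 of the 84 genes that were abundant enough to test. Rpl26, Rpl10l, Rpl39l and Rpl3l were not tested. This was 1 gene higher of 80, or 1.25%, where 3.13% of all 14993 genes tested were higher. By edgeR 0 of the 80 were lower, where 1.54% of all genes were lower, with 0 lower at an unadjusted p under 0.05 and 0 lower by DESeq2. By DESeq2, 2 were higher, Rps12 and Rpl12, where 4.22% of all genes were higher by that tool. An unadjusted p under 0.05 was reached by 18 of the 80 genes, all higher in SAH, against 17.0% of all genes in either direction.

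Rps12 (chr10:23504989-23507015, minus strand, 6 exons) encodes a protein of the small subunit's head. It had 105, 102, 104 and 103 CPM in SAH mice 1 to 4. In Sham mice 5 to 7 it had 96.9, 94.7 and 97.9 CPM, and in Naive mice 8 to 10 it had 90.5, 80.2 and 91.2 CPM. The 3 groups did not overlap, with SAH above Sham and Sham above Naive. Rps12 was picked for its difference between SAH and control, and no share of all genes is given for this order of 3 groups. Its log2 fold change was 0.17 ± 0.051 (standard error) in SAH against control (edgeR, adjusted p = 0.099), or 1.13-fold. Against Naive it was 0.25 ± 0.050 (adjusted p = 0.030) and against Sham 0.10 ± 0.050 (adjusted p = 0.56), the latter with a 95% interval from -0.0074 to 0.21. The SAH against control call was lost without any 1 of 9 of the 10 mice, with adjusted p from 0.104 to 0.200, and held only when Sham 7 was the mouse left out. It also failed with library size in place of TMM (adjusted p = 0.11) and without the filter on low counts (adjusted p = 0.11).

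The 5 highest log2 fold changes of SAH against control belonged to Rps27 (0.37 ± 0.23), Rpl22l1 (0.19 ± 0.079), Rps12, Rps21 (0.17 ± 0.060) and Rpl10 (0.16 ± 0.059). The 5 lowest belonged to Rpl7l1 (-0.12 ± 0.062), Rps26 (-0.078 ± 0.049), Rps4l (-0.071 ± 0.084), Rpl41 (-0.057 ± 0.042) and Rps28 (-0.052 ± 0.057). Apart from Rps12, none of these passed, with adjusted p from 0.17 to 0.70. Rps27 rested on 17 to 34 counts per mouse.

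As a group, these genes differed little in level. The median log2 fold change over the 80 genes was 0.064 in SAH against control, where that over all genes tested was -0.0024, and 71 of the 80 values were above 0. In 75 of the 80 the 95% interval lay within 0.3 of 0 on the log2 scale, which is a 1.23-fold change. The large subunit (median 0.070 over 44 genes) and the small subunit (median 0.062 over 33) were alike in size. Genes with under 50% of their windows repeated had a median of 0.081 (30 genes), and those with 50% or more 0.054 (50 genes). Complete separation of the 4 SAH mice above all 6 control mice in CPM was seen in 3 genes, Rps12 and Rpl12 among them, or 3.75% of the 80, where 2.83% of all genes tested showed it. In 0 genes did all SAH mice lie below (2.37% of all genes).

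Pairwise comparisons, from one fit of the 3 groups, gave the smallest median for SAH against Sham. In SAH against Sham 0 of the 80 genes were higher (0.529% of all 15134 genes tested) and 0 lower (0.192%), with 0 at an unadjusted p under 0.05 (9.69% of all genes) and 0 by DESeq2. The median log2 fold change was 0.022 (all genes -0.0019), and 75 of the 80 intervals lay within 0.3 of 0. This median was 0.0098 without SAH 1, 0.042 without SAH 2, -0.00050 without SAH 3, 0.047 without SAH 4, 0.0083 without Sham 5 and 0.051 without Sham 7. In SAH against Naive 6 genes were higher, or 7.5% of the 80, where 2.03% of all genes were higher, and 0 were lower by edgeR (0.965% of all genes), with 0 lower at an unadjusted p under 0.05 and 0 lower by DESeq2. The median was 0.11 (all genes 0.00018), 72 of the 80 values were above 0, and 31 genes, all higher in SAH, had an unadjusted p under 0.05 (14.8% of all genes in either direction). In Sham against Naive 0 genes were higher (0.00661% of all genes, which is 1 gene) and 0 lower (0.0%) by edgeR and by DESeq2. There the median was 0.090 (all genes -0.0017, and 0.145 for the ribosomal protein genes without Naive 10), 74 of the 80 values were above 0, and 14 genes, all higher in Sham, had an unadjusted p under 0.05 (2.02% of all genes in either direction). The 2 comparisons against Naive share the same 3 Naive mice, and the 2 comparisons of SAH share the same 4 SAH mice.

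**Figure D2:**
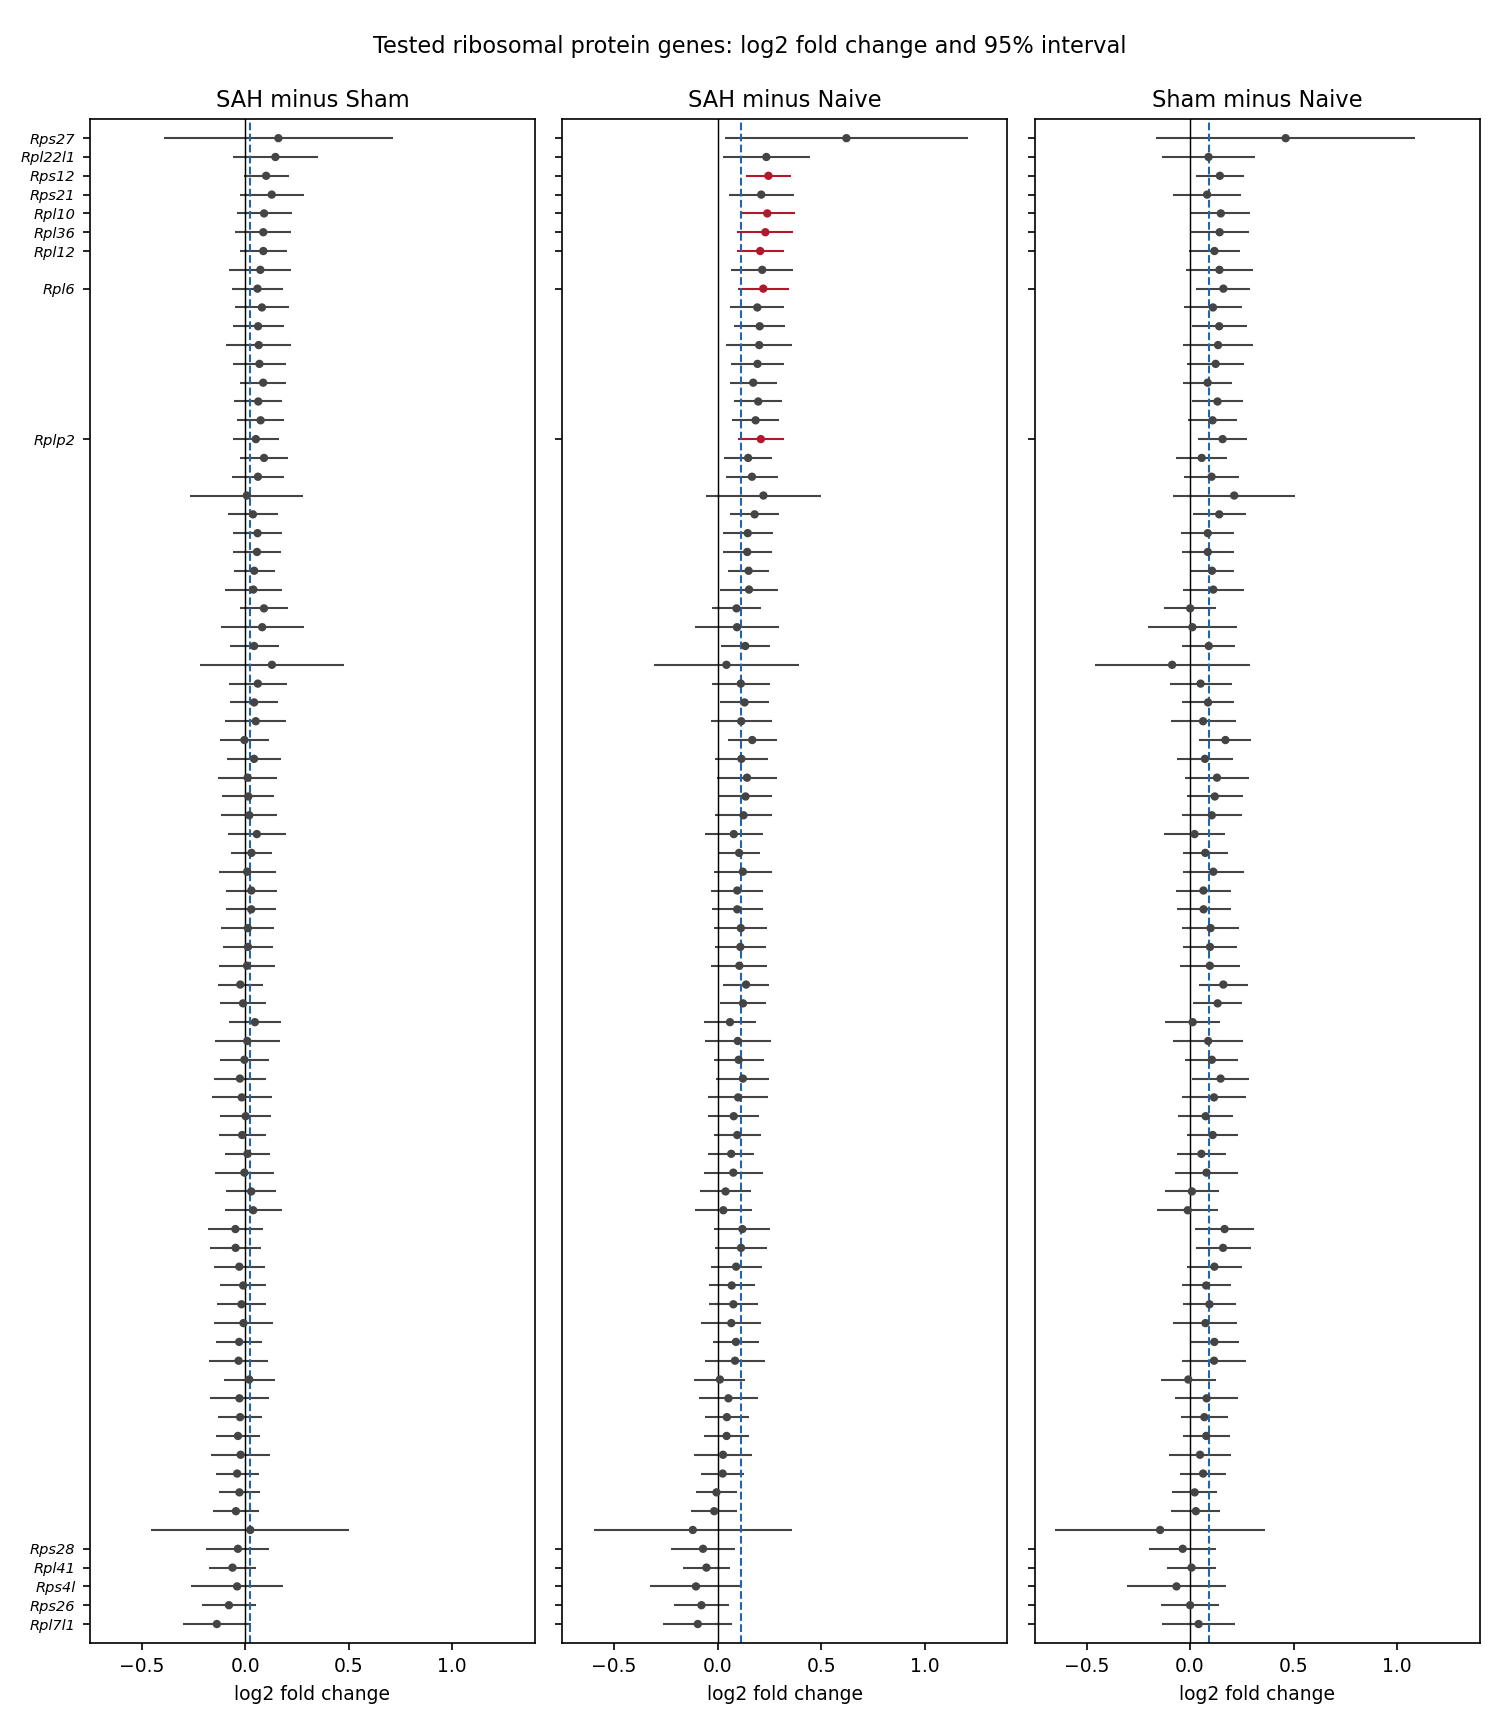
Log2 fold change (points) with 95% interval (lines) of the 80 tested ribosomal protein genes in the 3 pairwise comparisons, in the order of SAH against control; the 6 genes past the threshold and those with the 5 highest and 5 lowest values in SAH against control are named, red marks genes past the threshold and the dashed line is the median. The points centre near 0 in SAH minus Sham (median 0.022) and to the right of 0 in SAH minus Naive (median 0.11) and Sham minus Naive (median 0.090), with 6 red genes in SAH minus Naive and none in the others.

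The 6 genes past the threshold in SAH against Naive were Rps12 and 5 others that encode large-subunit or stalk proteins. Rplp2, the stalk partner of Rplp1 (chr7:148633549-148637241), had 89.2, 83.0, 83.6 and 80.7 CPM in SAH, 79.7, 78.0 and 85.7 CPM in Sham and 72.6, 73.2 and 72.5 CPM in Naive. SAH and Naive did not overlap, whereas SAH and Sham did. Its log2 fold change against Naive was 0.21 ± 0.051 (edgeR, adjusted p = 0.067).

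Rpl6 (chr5:121654510-121659250) had 146, 135, 154 and 138 CPM in SAH, 138, 137 and 138 CPM in Sham and 122, 115 and 132 CPM in Naive. Its SAH and Naive mice did not overlap, with SAH 2 the nearest to Naive 10, and its log2 fold change was 0.22 ± 0.056 (adjusted p = 0.078). Rpl10, a protein near the peptidyl transferase centre (chrX:71516155-71518474), had 135, 117, 133 and 124 CPM in SAH, 122, 114 and 122 CPM in Sham and 106, 102 and 115 CPM in Naive. SAH 1, SAH 3 and SAH 4 were above all Sham mice and SAH 2 was not, and the log2 fold change against Naive was 0.24 ± 0.062 (adjusted p = 0.079).

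Rpl12, a protein at the base of the stalk (chr2:32817232-32819565), had 119, 109, 112 and 110 CPM in SAH, 105, 106 and 107 CPM in Sham and 92.2, 95.3 and 105 CPM in Naive. All SAH mice were above all others, and the log2 fold change against Naive was 0.21 ± 0.053 (adjusted p = 0.078). Rpl36 (chr17:56752818-56753669) had 63.2, 60.7, 64.2 and 57.6 CPM in SAH, 59.3, 53.4 and 60.7 CPM in Sham and 51.0, 50.5 and 55.3 CPM in Naive, with SAH above Naive and overlapping Sham. Its log2 fold change was 0.23 ± 0.063 (adjusted p = 0.098). In SAH against Sham these 5 genes had log2 fold changes from 0.052 to 0.091, with adjusted p from 0.62 to 0.78. Of the 6, Rps12, Rpl10 and Rpl36 had over 90% of their windows repeated elsewhere, Rpl6 71.3%, Rpl12 49.0% and Rplp2 30.7%. For Rpl12 and Rplp2 the transcripts looked up had 1242 and 964 bases, against 638 and 441 in the counted exons. Their shares may therefore understate the repeats in the counted exons.

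**Figure D3:**
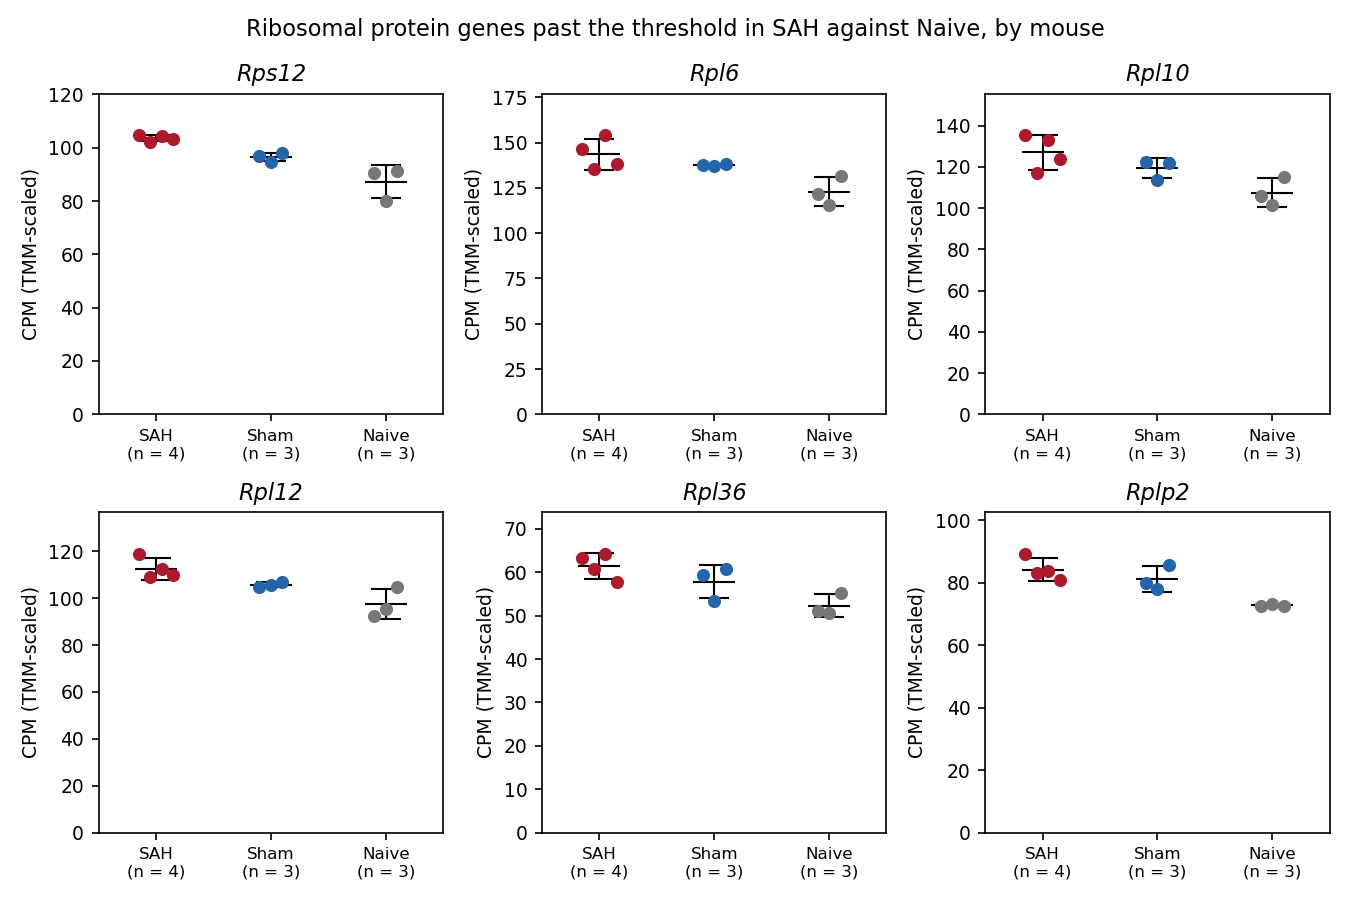
CPM of the 6 ribosomal protein genes past the threshold in SAH against Naive, with axes from 0; points are mice, bars the group mean and SD (n = 4 SAH, 3 Sham, 3 Naive). In each panel the 4 SAH mice lie above the 3 Naive mice, while Sham overlaps SAH, Naive or both except in Rps12, and the step from Naive to SAH is small against the level, as in Rps12 from 87.3 ± 6.17 to 104 ± 1.18 CPM.

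The count of 6 rested on few mice. It was 0 without Naive 9, 1 without Naive 8 and 1 without SAH 1, 3 without SAH 3, 9 without SAH 2, and 2 without any 1 of the 3 Sham mice, which enter the shared filter, scaling and estimate of spread. With only the SAH and Naive mice in the fit 1 gene passed, and by DESeq2 15 passed, all higher, where 3.09% of all genes were higher by that tool. Complete separation in CPM was seen in 17 of the 80 genes in SAH above Naive (7.04% of all genes) and in 17 in Sham above Naive (4.84% of all genes), and in 0 genes in the opposite direction (6.75% and 4.15% of all genes). In SAH above Sham it was seen in 3 genes, again with Rps12 and Rpl12 among them (5.03% of all genes), and in 0 below (4.45%).

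The differences lay between mice as much as between groups. For each of the 80 genes the deviation of a mouse was its log2 CPM minus the mean of that gene over the 10 mice, and the median over genes was taken in each mouse. It was 0.090, 0.0014, 0.11 and -0.025 in SAH mice 1 to 4, -0.00082, 0.0025 and 0.064 in Sham mice 5 to 7, and -0.096, -0.14 and 0.012 in Naive mice 8 to 10. The groups overlapped: SAH 4 lay below every Sham mouse and below Naive 10. Naive 9 was the lowest mouse in 47 of the 80 genes and Naive 8 in 13, while SAH 3 was the highest in 38 and SAH 1 in 23. The summed counts had the same order, at 0.942% ± 0.032 of all counts in SAH (SD, n = 4), 0.930% ± 0.023 in Sham (n = 3) and 0.869% ± 0.052 in Naive (n = 3). The log2 ratio of the SAH to the control mean was 0.067, and 0.042 without Naive 9.

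Other short transcripts deviated with the same sign in the 5 mice with the farthest medians. The ribosomal protein genes are short, with a median exon length of 717.5 bases against 2197 over all gene names. Other genes with under 1000 exon bases had median deviations of -0.022 in Naive 8 and -0.059 in Naive 9, and of 0.031 in SAH 1, 0.030 in SAH 3 and 0.038 in Sham 7. Genes over 3000 bases had the opposite sign, at 0.018, 0.030, -0.0076, -0.019 and -0.013 in the same 5 mice. Mitochondrial ribosomal protein genes had -0.041 in Naive 8 and -0.046 in Naive 9. With the trend on exon length removed from each mouse, an alternative added after the data were seen, the median log2 fold change over the 80 genes was 0.054 in SAH against control, 0.032 against Sham, 0.087 against Naive and 0.057 in Sham against Naive. In that fit 1, 0, 4 and 0 of the 80 genes were higher, where 3.31%, 0.654%, 2.11% and 0.00661% of all genes were higher. Choroid plexus markers summed to 67.5, 44.2 and 53.0 CPM in Naive mice 8 to 10, to 211, 57.2 and 827 CPM in Sham mice 5 to 7 and to 102, 215, 1225 and 862 CPM in SAH mice 1 to 4. The part of these markers in the differences was not tested.

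**Figure D4:**
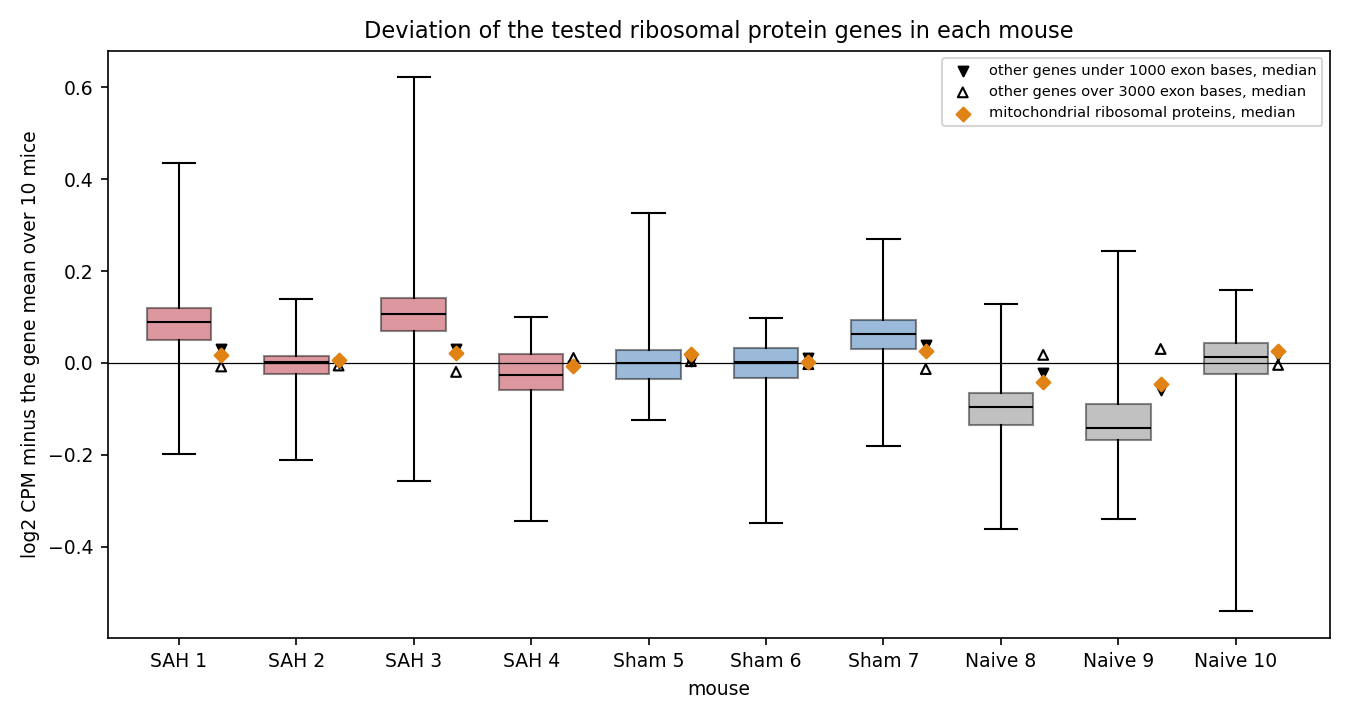
Deviation of the 80 tested ribosomal protein genes in each of the 10 mice (log2 CPM minus the mean of each gene over all mice); boxes span the quartiles with the median as a line, whiskers reach the extremes, and colours mark SAH (red), Sham (blue) and Naive (grey). Naive 8 and Naive 9 sit lowest (medians -0.096 and -0.14) and SAH 1 and SAH 3 highest (0.090 and 0.11), while filled triangles (other short genes) shift the same way and open triangles (long genes) the other way, by smaller amounts.

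Few genes passed in the rest of the translation machinery. Of all 14993 genes tested in SAH against control, 3.13% were higher, 1.54% were lower and 17.0% had an unadjusted p under 0.05. Of the cytosolic ribosomal proteins whose names fall outside the naming pattern, Fau, made as a ubiquitin-like fusion, had a log2 fold change in SAH against control of 0.095 ± 0.046, Gnb2l1, the scaffold protein RACK1, had 0.093 ± 0.047, and Rpl36al, the paralog of Rpl36a, had 0.022 ± 0.047. None of the 3 passed by edgeR (adjusted p = 0.32, 0.34 and 0.84), with 0 at an unadjusted p under 0.05 and 0 by DESeq2. Among 77 mitochondrial ribosomal protein genes 0 passed, with a median of 0.016 (2 at an unadjusted p under 0.05, both higher, and 0 by DESeq2). Initiation factors (36 genes, median 0.012, 3 at an unadjusted p under 0.05), elongation factors (12 genes, median 0.019, 1 unadjusted) and ribosome biogenesis genes (55 genes, median -0.00027, 4 unadjusted) had 0 genes past the threshold by edgeR and 0 by DESeq2. In SAH against Sham, SAH against Naive and Sham against Naive these 3 lists and the mitochondrial ribosomal proteins again had 0 genes past the threshold by edgeR, and 0 by DESeq2 except for 1 initiation factor, Eif4g3, lower in SAH than in Naive.

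Among 18 genes of the mTORC1 and LARP1 pathway 1 was higher in SAH than in control and 0 were lower by edgeR (3 lower at an unadjusted p under 0.05). Over all genes tested 3.13% were higher and 1.54% lower, so that 1 gene in a list of this size is no excess to read. The higher gene was Rragd, a Rag GTPase that brings mTORC1 to the lysosome, with 126 ± 6.95 CPM in SAH (SD, n = 4) and 112 ± 6.12 CPM in control (n = 6). This call (0.17 ± 0.049 on the log2 scale, adjusted p = 0.094) was made in 7 of 19 alternative settings. For Larp1 the value was -0.15 ± 0.054 (adjusted p = 0.18) and for Mtor -0.021 ± 0.044 (adjusted p = 0.83). Of 20 other genes listed as having TOP mRNAs 1 was higher, Vim, the intermediate filament protein of reactive astrocytes and vascular cells, with 79.0 ± 27.6 CPM in SAH and 33.8 ± 3.49 CPM in control (log2 fold change 1.22 ± 0.17, adjusted p = 0.0027). The median of these 20 was 0.048, and the translation factors Eef1a1 (0.041 ± 0.036) and Eef2 (-0.0099 ± 0.028) did not pass (adjusted p = 0.59 and 0.88).

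**Figure D5:**
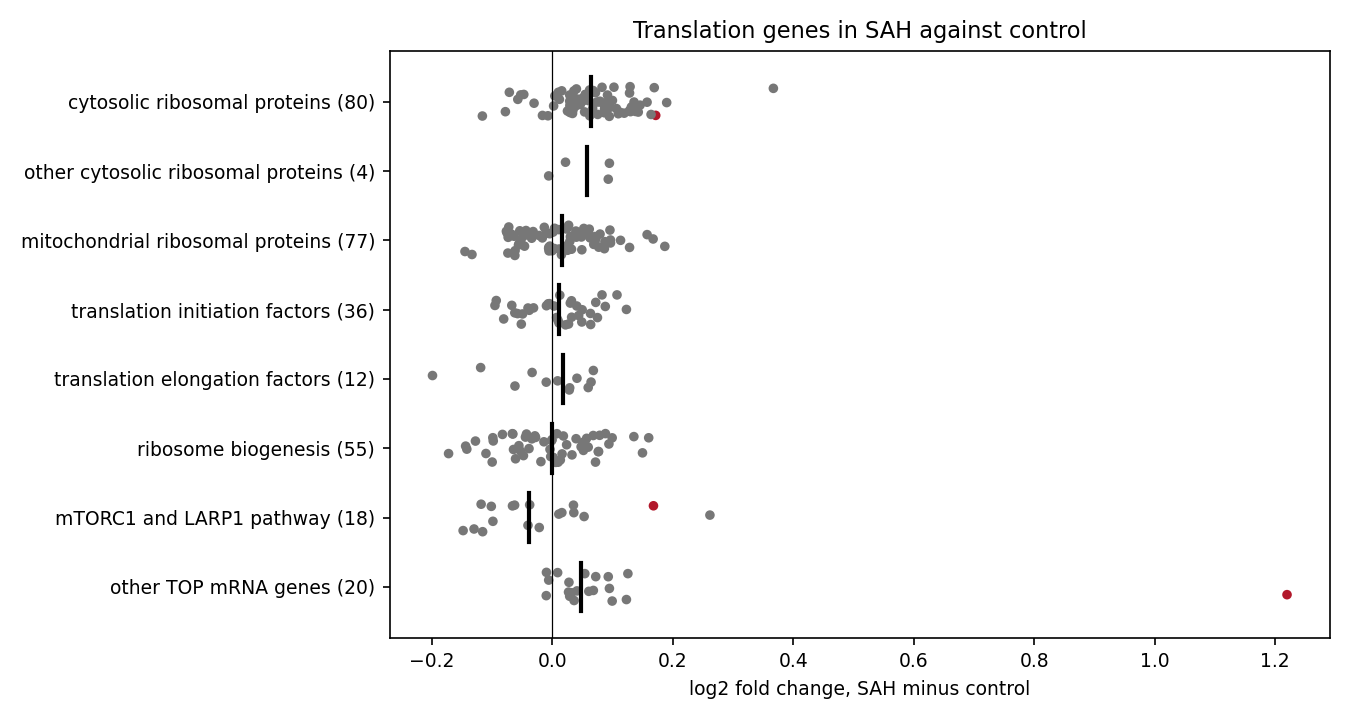
Log2 fold change of SAH minus control for each tested gene of 8 groups of translation genes, with the number of genes in brackets; points are genes, red ones passed the threshold, and the vertical bars are medians. All medians lie between -0.039 and 0.064, and the 3 red points are Rps12, Rragd and Vim, the last at 1.22.

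Pseudogenes have few rows of their own in the deposited tables. Of the 7 rows named as ribosomal protein pseudogenes, Rplp2-ps1 and Rpl34-ps1 were listed at 0 in every mouse and 3 were tested. Rpl14-ps1, with 115 to 252 counts, differed by 0.41 ± 0.12 (log2) between SAH and control (edgeR, adjusted p = 0.101, which misses the threshold) and by 0.57 between SAH and Naive (adjusted p = 0.065). The other 2, Rps15a-ps6 and Rps19-ps3, had 12 to 31 counts and did not pass.

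Annotated start sites were examined for the TOP motif, taken as a C at the first transcribed base followed by at least 4 pyrimidines (C or T). The RefSeq promoter table (GRCm38.p6, so that its coordinates differ from those above) held 63 of the 84 genes. The motif stood exactly at the annotated start in 13 of the 63, or 20.6%, and in 3.01% of all 27025 genes of the table. When it could begin within 5 bases on either side, it was found in 29, or 46.0%, against 21.2% of all genes. The windows below, 10 bases before to 20 bases from the start, show the 5 genes past the threshold in SAH against Naive for which a window is given (all but Rpl36), together with Rps6 and Rpl35 as genes with the motif at the start. Capitals mark the longest unbroken run of pyrimidines in the window.

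Rps12, chr10:23787190-23787219, minus strand: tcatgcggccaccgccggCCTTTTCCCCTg
Rpl6, chr5:121204491-121204520, plus strand: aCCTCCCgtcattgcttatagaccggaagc
Rpl12, chr2:32961702-32961731, plus strand: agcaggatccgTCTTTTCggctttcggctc
Rplp2, chr7:141447641-141447670, plus strand: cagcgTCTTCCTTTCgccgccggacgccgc
Rpl10, chrX:74270806-74270835, plus strand: tacagtggaagataggccgCCTatataagg
Rps6, chr4:86857348-86857377, minus strand: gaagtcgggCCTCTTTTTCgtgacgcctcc
Rpl35, chr2:39005112-39005141, minus strand: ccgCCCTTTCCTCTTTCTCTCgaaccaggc

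Rplp2 had the motif at its annotated start, Rpl12 within 5 bases of it, and Rps12, Rpl6 and Rpl10 in neither place, so that the 5 genes did not share the motif at this annotation. In the Rps12 window the longest run, of 11 pyrimidines, begins at the 9th base counted from the annotated start. A match is a description of letters at an annotated start, and these libraries do not measure translation.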

How the data were processed

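RNA sequencing of bilateral hippocampus was analysed for 10 mice, 1 library each. The authors prepared libraries from 100 ng of total RNA (RNA integrity number over 9.0) with a stranded kit and ribosomal RNA depletion, and sequenced read pairs of 50 bases. They aligned them to mm9 with STAR and counted them with featureCounts 1.6.2 per gene name, in the sense direction. They discarded pairs with several alignments or several gene names. The deposited counts are not normalized and were checked here to be whole numbers. The reads were not used here, so that discarded pairs could not be recovered.

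From the counts, edgeR 4.0.16 (R 4.3.3) was run on all gene names, with filterByExpr (minimum count 10, minimum total 15), TMM and the quasi-likelihood test. SAH against control was fitted with 2 groups, and the pairwise comparisons with 3. Standard errors are the log2 fold change divided by the square root of F. CPM are TMM-scaled, log2 CPM have a prior count of 2, and CPM per kilobase were divided by exon length. The scripts were tested on simulated data. Where a count of 0 is given, it allows up to 3 counts, for counting error only. Alternatives were DESeq2 1.42.0, other scalings and filters, an adjusted p under 0.05, other models and each mouse left out.

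Repeats were exact 50-base matches on the chromosomes of NCBIM37, in GENCODE vM1 transcripts for 82 genes and in the deposited exons for Rpl41 and Rps4l. The transcript with the most bases inside the deposited exons was taken, and it could also hold bases outside them. Start-site sequences are from RefSeq (GRCm38.p6).

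The genes named were those past the threshold, the 5 highest and lowest fold changes and levels, stalk genes, paralogs, unexpressed genes and list genes past the threshold. Some genes with completely separated groups, Rpl9, Rpl26, Rpl13a, Rpl35, Larp1, Mtor, Eef1a1, Eef2 and Eif4g3 were added with their values known. The genes, lists and tests were chosen with earlier results of these data known. The labels do not say more of the replicates than 1 animal each. A few genes are not reported here by name, and they stay in the counts and medians.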

Additional observations from a re-analysis of the deposited data

How the results depend on the processing

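Under the 18 alternatives that give one, the median log2 fold change over the ribosomal protein genes tested (80 to 83) kept its sign, except in SAH against Sham without SAH 3, where it was -0.00050. With each mouse left out it ran from 0.044 to 0.088 in SAH against control, from -0.00050 to 0.051 in SAH against Sham, from 0.082 to 0.17 in SAH against Naive and from 0.063 to 0.145 in Sham against Naive. The count of higher genes in SAH against control, 1, was 2 with DESeq2, 0 with library size alone, 0 without the filter, 0 at an adjusted p under 0.05 and 0 to 3 with each mouse left out. In SAH against Naive the 6 higher genes became 15 with DESeq2, 10 with library size alone, 1 with only the mice of the 2 groups, 1 at an adjusted p under 0.05 and 0 to 9 with each mouse left out. Of the 6, Rps12 passed in 18 of 19 settings, Rplp2 in 12, Rpl12 in 10, Rpl6 and Rpl10 in 9 and Rpl36 in 6. Counts of lower genes were 0 in every comparison and setting run, as were counts of higher genes in SAH against Sham and in Sham against Naive. The TOP motif share rose from 20.6% to 46.0% when the motif could begin within 5 bases of the start, and was 16.7% and 41.7% at the 5′ ends of the deposited mm9 rows, an alternative added after the data were seen. No paired analysis was possible because no mouse number is shared between groups. Counts of at most 66 per mouse, in genes with overlap and repeats, limit the precision for Rps27, Rpl30 and Rpl34, and 4 genes had too few counts to test.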
